A study of Bos taurus with 6 samples.

Results

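The ZIC genes encode C2H2 zinc finger transcription factors that are related to the GLI factors of the Hedgehog pathway. They are known for their part in the forming neural plate, the neural crest and the cerebellum, and ZIC2 also binds enhancers in pluripotent cells, where it is among the factors of the primed state. Loss of ZIC2 function is a cause of holoprosencephaly, a failure of the forebrain to divide, and deletions of the ZIC1 and ZIC4 pair have been linked to malformation of the cerebellum. The family members sit in pairs of neighbours that are transcribed away from each other, ZIC2 beside ZIC5 and ZIC1 beside ZIC4.

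ZIC1, ZIC2, ZIC4 and ZIC5 were looked up by gene symbol and by Entrez identifier among 19163 genes counted in bovine embryonic stem cells. Of these 4 genes, ZIC2 (Entrez gene 514433, ENSBTAG00000025246) and ZIC5 (787451, ENSBTAG00000046271) were matched in the table of counts and in the table of deposited TPM, so 2 genes were measured. ZIC1 and ZIC4 were matched in neither table and were not analysed here. The genome build behind the counts is not given in the sources used here, so no positions are printed.

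The cells were of 1 line, F7, which came from in vitro fertilized embryos of Holstein Friesian cattle. In 3 libraries the cells had grown on mouse embryonic fibroblasts (MEFs) whose division was stopped with mitomycin C (MC-F7, labelled 1M-F7 in the deposited data), and in 3 libraries on MEFs that had been killed by methanol fixation (MT-F7). Both groups were at 15 passages in the same medium, which held FGF and the WNT inhibitor IWR1, and in both the floating cells were collected after a short adhesion step on gelatin. The medium was changed every day for MC-F7 and every other day for MT-F7, so the kind of feeder and the feeding rhythm cannot be told apart. No source used here says that the 3 libraries per group were grown as separate cultures, and the p values then measure only the spread between these libraries, which may be technical.

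Levels are counts per 1000000 counts (CPM) on library sizes scaled by TMM, and log2 fold changes above 0 stand for more RNA in MT-F7. Per library, 21958386 to 24933430 reads fell on genes. The genes of the mitochondrial genome took 16.3% to 28.3% of the counts, and replicate 3 was the highest on either feeder layer. Markers fixed for other cells were checked together with those of pluripotent cells. POU5F1, the central pluripotency factor, was at 825 to 1456 CPM on mitomycin C-treated and 486 to 557 CPM on methanol-fixed MEFs, and of 7 tested pluripotency markers 5 were lower and 0 higher in MT-F7, beside 11.3% lower and 11.9% higher over all tested genes. LIN28A, one of the 5, did not pass without MC-F7 replicate 2 (adjusted p = 0.065), MT-F7 replicate 1 (0.093) or MT-F7 replicate 2 (0.087). Among the trophectoderm markers, CDX2 and HAND1 were at 0 counts in all 6 libraries, while the keratins KRT8 (499 to 1790 CPM), KRT18 (179 to 1040 CPM) and KRT7 (5.83 to 75.6 CPM) were detected. Among the mesendoderm markers, GATA4 was at 0 counts and TBXT at most at 0.041 CPM, while EOMES was at 2.89 to 5.71 CPM and FOXA2 at 0.348 to 5.06 CPM.

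ZIC2 was one of the more abundant transcripts of the cells, and its mean levels on the feeder layers differed by less than the spread between libraries. The MC-F7 libraries had 2431, 2806 and 1780 ZIC2 counts, which is 108, 116 and 83.2 CPM. The MT-F7 libraries had 3042, 2773 and 2006 counts, or 121, 107 and 85.2 CPM. The groups overlapped, and the lowest value of each group was that of replicate 3. On average MC-F7 held 102 ± 17.1 CPM and MT-F7 held 104 ± 18.1 CPM of ZIC2 (SD, n = 3), and 88.4% of the 13001 tested genes had a lower mean CPM. The log2 fold change of ZIC2 was 0.030 (standard error 0.177), with a 95% interval from -0.35 to 0.41 and an adjusted p of 0.92 in edgeR's quasi-likelihood test. On the linear scale this interval runs from 0.782 to 1.33 times the MC-F7 level, so a change of ZIC2 by more than these factors lies outside it. Of the tested genes, 4.6% had a smaller absolute log2 fold change than ZIC2.

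ZIC5, the neighbour of ZIC2 and the least studied of the family, was expressed at a lower level and varied more between libraries. The MC-F7 libraries had 357, 672 and 712 ZIC5 counts (15.8, 27.9 and 33.3 CPM), and those of MT-F7 had 557, 535 and 682 (22.2, 20.7 and 29.0 CPM). Here replicate 3 was the highest library of each group, and the 3 MT-F7 values all lay within the range of the MC-F7 values. On average MC-F7 held 25.6 ± 8.96 CPM and MT-F7 held 23.9 ± 4.41 CPM of ZIC5 (SD, n = 3). The log2 fold change was -0.10 (standard error 0.243, 95% interval -0.63 to 0.43, adjusted p = 0.81), or 0.648 to 1.34 times the MC-F7 level. The interval of ZIC5 was thus wider than that of ZIC2, and a change within these factors cannot be told from none. The low ZIC5 value of MC-F7 replicate 1 weighed most on this comparison. Without that library the log2 fold change of ZIC5 was -0.35 (adjusted p = 0.24), and without MC-F7 replicate 3 it was 0.12 (adjusted p = 0.75).

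**Figure D1:**
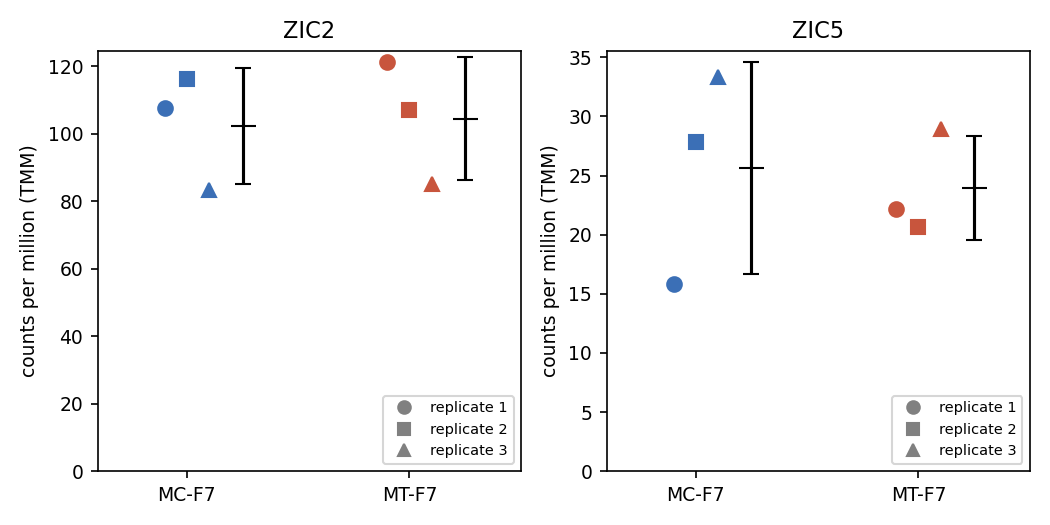
Expression of ZIC2 (left) and ZIC5 (right) in CPM scaled by TMM, with 1 point for each library (circle, square and triangle for replicates 1, 2 and 3) and the mean with SD of each group in black. The groups overlap for both genes, and replicate 3 is the lowest library for ZIC2 and the highest for ZIC5 on either feeder layer.

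Neither of the 2 measured ZIC genes passed an adjusted p under 0.05, while 3016 of the 13001 tested genes did (23.2%). These were 1553 higher genes (11.9%) and 1463 lower genes (11.3%). On the deposited TPM the split was less even, with 1395 higher and 723 lower genes by limma on log2(TPM + 1) and 1691 higher and 883 lower genes on log2(TPM + 0.1). Limma took all genes with a TPM above 0 in any library, without removal of low genes. Its counts are thus not out of the 13001. For limma these TPM were not scaled to library size. Per library they added up to 154763 to 161716 in MC-F7 and to 163772 to 164394 in MT-F7. The part of this in the split was not tested. The feeder groups overlapped in both ZIC genes, and they did not overlap in 40% of the tested genes. The quasi-likelihood test, the likelihood ratio test of edgeR, the Wald test of DESeq2 and limma on the deposited TPM each called 0 of the 2 genes, and 0 of the 2 had an unadjusted p under 0.05 in any of these fits. Genes of a like level were called at this depth. Among 646 genes with a mean CPM within 1.2 times that of ZIC2, 125 were called (19.3%), and the smallest absolute log2 fold change among them was 0.44. Among 1081 genes equally close to the level of ZIC5, 254 were called (23.5%), again with 0.44 as the smallest. The standard error of ZIC5 was larger than that of 94.5% of the genes at its level, and that of ZIC2 was larger than that of 73.2% of the genes at its level. The variation between libraries that the model gave (the biological coefficient of variation) was 16.2% for ZIC2, against a median of 14.9% at its level. For ZIC5 it was 21.4%, against a median of 15.8%.

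The TPM values, which take gene length into account, allow the levels of ZIC2 and ZIC5 to be compared with each other. In the MC-F7 libraries ZIC2 was at 9.07, 10.5 and 6.64 TPM and ZIC5 at 1.63, 3.08 and 3.26 TPM. In the MT-F7 libraries ZIC2 was at 11.35, 10.3 and 7.48 TPM and ZIC5 at 2.55, 2.45 and 3.12 TPM. ZIC2 was thus above ZIC5 in each of the 6 libraries. In the single libraries, 90.7% to 93.4% of the genes in the TPM table were below ZIC2 and 72.8% to 83.0% were below ZIC5. These TPM values were not scaled to 1000000 per library (1 library added up to between 154763 and 164394), and 1 TPM stood for 268 counts of ZIC2 and for 218 counts of ZIC5 in every library. Ratios within a library are not touched by this.

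The proportion of the neighbours differed more between replicates than between feeder layers. Per length, ZIC2 was 5.55, 3.40 and 2.04 times ZIC5 in the MC-F7 libraries and 4.45, 4.23 and 2.40 times ZIC5 in the MT-F7 libraries. The lowest ratio of each group was that of replicate 3, and the ranges of the groups overlapped. On the log2 scale the ratio of ZIC2 to ZIC5 counts averaged 2.05 ± 0.723 over the MC-F7 libraries and 2.13 ± 0.495 over the MT-F7 libraries (SD, n = 3). The difference of 0.076 had p = 1 in a two-sided exact permutation test over libraries, in which 3 against 3 libraries cannot go below 0.1. Its direction turned when MC-F7 replicate 3 (-0.29), MT-F7 replicate 1 (-0.085) or MT-F7 replicate 2 (-0.048) was left out.

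**Figure D2:**
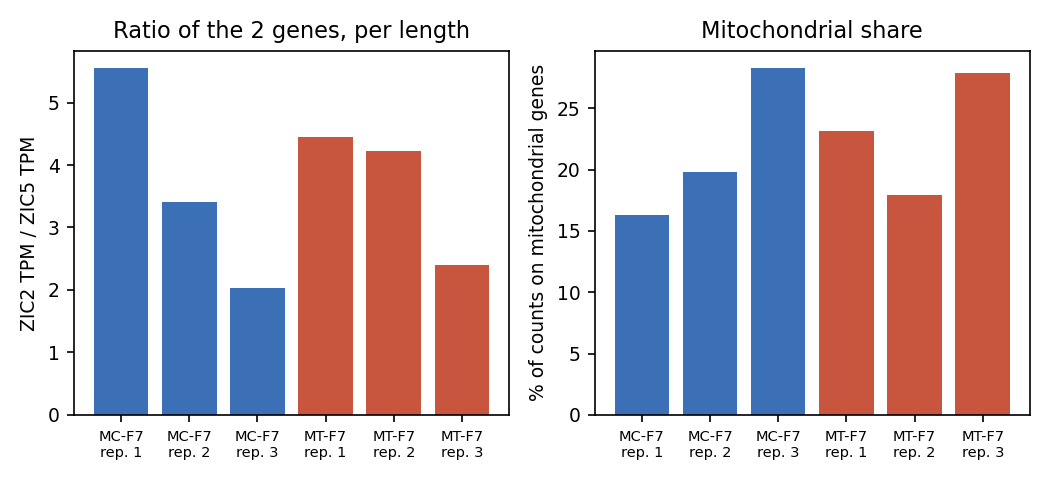
Left, the ratio of deposited TPM of ZIC2 to that of ZIC5 in each library (MC-F7 blue, MT-F7 red), from 2.04 to 5.55; right, the percentage of counts on genes of the mitochondrial genome in the same libraries, from 16.3% to 28.3%. Replicate 3 has the lowest ratio and the highest mitochondrial share in both groups.

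Replicate 3 of both groups thus had the lowest ZIC2, the highest ZIC5 and the highest mitochondrial share, of 28.3% (MC-F7) and 27.9% (MT-F7). The ZIC counts were also divided by totals that left the mitochondrial genes out. Per 1000000 other counts, ZIC2 was then at 126, 149 and 113 for the MC-F7 libraries and at 159, 136 and 115 for those of MT-F7, and ZIC5 was at 18.5, 35.8 and 45.2 and at 29.1, 26.2 and 39.0 in the same order. Replicate 3 was still the lowest library for ZIC2 in each group. It also stayed the highest for ZIC5, which was fixed in advance, since these totals raise replicate 3 most. The part of the mitochondrial share in the ZIC values was not tested. A shared extreme in replicate 3 was common in the data. Of the tested genes, 25.9% had their lowest value in replicate 3 of both groups and 24.7% their highest. Without both replicate 3 libraries the log2 fold change was 0.044 for ZIC2 (adjusted p = 0.81) and -0.015 for ZIC5 (adjusted p = 0.97).

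The genes whose profile over the 6 libraries was most like that of each ZIC gene were found by the root mean square difference of log2 CPM, after each of 11915 genes was centred on its own mean. For ZIC2 these were NUDT7 (0.032), which encodes a peroxisomal hydrolase of coenzyme A, MRPL35 (0.044), a protein of the mitochondrial ribosome, and MESD (0.046), a chaperone of WNT co-receptors. For ZIC5 they were SOS1 (0.047), an activator of RAS, UBR2 (0.068), a ubiquitin ligase, and GPATCH8 (0.069). ZIC5 was at place 8863 of 11915 in likeness to ZIC2 (0.507), and ZIC2 was at place 6973 in likeness to ZIC5. The profiles of the neighbouring ZIC genes were therefore far from the most alike, which is a description over 6 libraries.

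In the order of protein-coding genes in RefSeq (assembly ARS-UCD2.0, used for the order only), ZIC5 and ZIC2 follow each other between CLYBL and PCCA. TM9SF2, CLYBL, PCCA, GGACT and TMTC4 were among the nearest 3 genes on either side. CLYBL was not analysed here, and LOC615640, the remaining one, was at 0 counts in all 6 libraries. TM9SF2, a membrane protein of the endosome, had a log2 fold change of 0.0064 (adjusted p = 0.98). It was -0.24 for PCCA, a subunit of the mitochondrial propionyl-CoA carboxylase (adjusted p = 0.44), and -0.23 for TMTC4 (adjusted p = 0.40). GGACT, an enzyme that breaks down crosslinks left by transglutaminases, was the only one of these 4 neighbours that fell, from 21.4 ± 0.983 to 13.9 ± 2.17 CPM. It was -0.63 on the log2 scale (standard error 0.170, adjusted p = 0.018), and GGACT did not pass without MC-F7 replicate 2 (adjusted p = 0.076) or without MT-F7 replicate 1 (adjusted p = 0.075). The ZIC2 interval of -0.35 to 0.41 does not reach the estimate for GGACT, while the lower end of the ZIC5 interval (-0.63) is about equal to it. The GGACT estimate has an error of its own, and the differences between these genes were not tested.

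**Figure D3:**
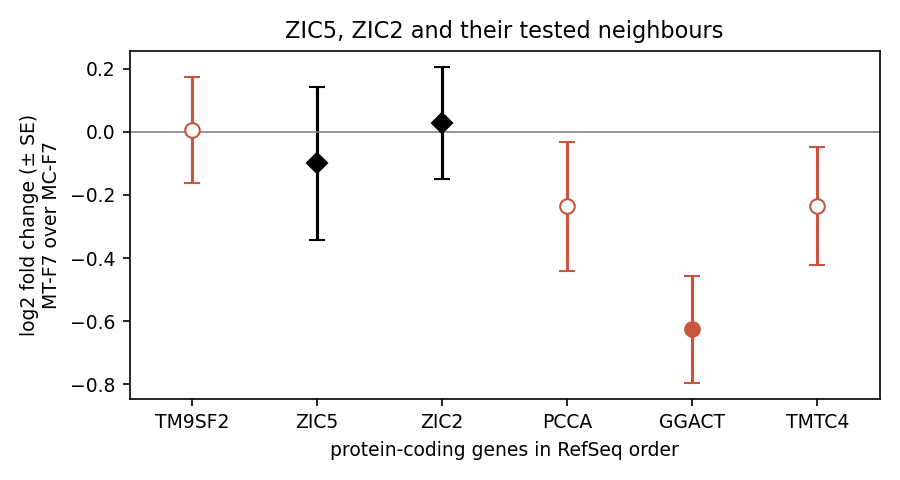
Log2 fold change of MT-F7 over MC-F7 with standard error for ZIC5 and ZIC2 (black diamonds) and their tested neighbours (circles, filled where the adjusted p was under 0.05), in RefSeq order. ZIC5 (-0.10) and ZIC2 (0.030) lie near 0, and GGACT (-0.63) is the filled neighbour.

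The GLI and GLIS genes, the closest relatives of the ZIC genes, did not share one direction. Of 6 listed genes 5 were tested, and 1 was higher and 2 were lower in MT-F7, beside 11.9% higher and 11.3% lower over all tested genes. The median log2 fold change was -0.88 beside -0.0026 over all tested genes. GLI1, a Hedgehog target and activator, fell from 30.4 ± 2.10 to 9.63 ± 1.98 CPM (log2 fold change -1.66, standard error 0.184, adjusted p = 4.3e-05). The RNA of GLI3, the gene of the main repressor, rose from 3.95 ± 0.975 to 14.6 ± 3.28 CPM (1.88, standard error 0.243, adjusted p = 1.4e-04). Its protein forms were not measured. GLI2 fell with a log2 fold change of -0.88 (adjusted p = 0.039), and like ZIC5 it was highest in replicate 3 of both groups. It did not pass without MC-F7 replicate 2 (adjusted p = 0.079), MC-F7 replicate 3 (0.13), MT-F7 replicate 1 (0.12) or MT-F7 replicate 2 (0.13). GLIS2 had a log2 fold change of 0.63 (adjusted p = 0.062), and it passed without MC-F7 replicate 3 (adjusted p = 0.020) or MT-F7 replicate 1 (0.043). The ZIC2 and ZIC5 estimates were both nearer to 0 than those of the 5 tested relatives.

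Factors of the early neural plate, the tissue in which ZIC genes are switched on in the embryo, were called higher and not lower in MT-F7. Of 17 listed genes 14 were tested, of which 9 rose, 0 fell and 5 did not pass, beside 11.9% higher and 11.3% lower over all tested genes. The median log2 fold change was 1.68. LHX2, an eye field and forebrain factor, went up from 34.6 ± 3.15 CPM to 324 ± 52.2 CPM (log2 fold change 3.23, standard error 0.177, adjusted p = 5.7e-07). RAX, PAX6 and FEZF1 rose with log2 fold changes of 2.98, 2.92 and 2.63. SIX3 (1.73) and LHX5 (1.72), forebrain factors like these, also rose, and the groups of these 6 genes did not overlap, as in 40% of all tested genes. FEZF2 rose least (0.50), and it did not pass without MC-F7 replicate 1 (adjusted p = 0.071), MC-F7 replicate 2 (0.15), MT-F7 replicate 2 (0.11) or MT-F7 replicate 3 (0.058). OTX2, a factor of the anterior epiblast and neural plate, had a log2 fold change of 0.26 (adjusted p = 0.29), and IRX3 one of -0.15 (adjusted p = 0.62). The upper ends of the 95% intervals were 0.41 for ZIC2 and 0.43 for ZIC5. Both lie below the estimates of all 9 genes that rose. The interval of FEZF2 (0.17 to 0.83), among others, overlaps those of both ZIC genes, and the differences between single genes were not tested.

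At the border of the neural plate and in the dorsal neural tube, where ZIC genes act with PAX3 and MSX1 in the making of neural crest, 10 of 18 listed genes were tested. Of these 3 rose and 2 fell, beside 11.9% higher and 11.3% lower over all tested genes, and the median log2 fold change was 0.53. DLX5 rose from 2.97 ± 0.419 to 47.8 ± 11.8 CPM (log2 fold change 4.01, standard error 0.225, adjusted p = 5.9e-07). PAX3 rose to 2.88 ± 0.908 CPM from 7, 9 and 0 counts in MC-F7 (log2 fold change 3.60, adjusted p = 9.2e-04). SOX9 rose as well (0.89, adjusted p = 0.025), but not without MC-F7 replicate 1 (adjusted p = 0.070), MT-F7 replicate 1 (0.090) or MT-F7 replicate 2 (0.086). FOXD3, a factor of both neural crest and pluripotent cells, fell with a log2 fold change of -2.49 (adjusted p = 5.0e-05), and GBX2 fell with one of -2.22 (adjusted p = 0.0020). TFAP2A (0.15) and MSX1 (0.17) were near ZIC2 in their log2 fold changes, with adjusted p values of 0.82 and 0.83.

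ZIC2 is one of the genes behind holoprosencephaly, and the other genes known for it were followed as a list of 16. Of 14 tested genes, 3 rose, 5 fell and 6 did not pass, beside 11.9% higher and 11.3% lower over all tested genes, and the median log2 fold change was -0.18. The number that fell was 3 without MC-F7 replicate 2, MC-F7 replicate 3, MT-F7 replicate 1 or MT-F7 replicate 2, and 2 by limma on the deposited TPM, while 3 rose in each of these fits. GLI2 and GAS1, a membrane protein that binds Hedgehog ligands, passed in 2 and 1 of the 6 fits with 1 library left out. FGF8, a ligand of the anterior neural ridge, rose from 3.22 ± 1.71 to 22.7 ± 2.86 CPM (log2 fold change 2.81, adjusted p = 2.8e-05), and SIX3 and DLL1 (1.51, adjusted p = 0.0027) rose with it. TDGF1, the Nodal co-receptor, fell from 12.6 ± 3.03 to 1.99 ± 0.295 CPM (-2.65, adjusted p = 1.1e-05). FOXH1, a partner of SMAD factors in Nodal signaling, fell with a log2 fold change of -1.51 (adjusted p = 0.0018), and PTCH1, the Hedgehog receptor, fell with one of -1.05 (adjusted p = 2.7e-04). SHH itself, the ligand of PTCH1, was at 1, 5 and 0 counts in MC-F7 and at 0 counts in the MT-F7 libraries. FGFR1 (-0.091, adjusted p = 0.75) and CDON (0.12, adjusted p = 0.77) were among the genes of this list that, like ZIC2, did not pass.

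Genes for proteins reported to bind ZIC factors formed the last list. All 14 were tested, and 2 rose, 2 fell and 10 did not pass, a share of 28.6% called against 23.2% over all tested genes. Their median log2 fold change was 0.19. Besides GLI1, GLI2 and GLI3, the call was MDFIC, a relative of the myogenic inhibitor MDFI (1.15, adjusted p = 0.026), which did not pass without MC-F7 replicate 3 (adjusted p = 0.058), MT-F7 replicate 1 (0.066) or MT-F7 replicate 2 (0.086). MBD3, a subunit of the NuRD complex that shares sites with ZIC2 in stem cells, had a log2 fold change of 0.038 (adjusted p = 0.89). XRCC6, a subunit of the Ku complex of DNA repair, had a log2 fold change of -0.055 (adjusted p = 0.83).

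**Figure D4:**
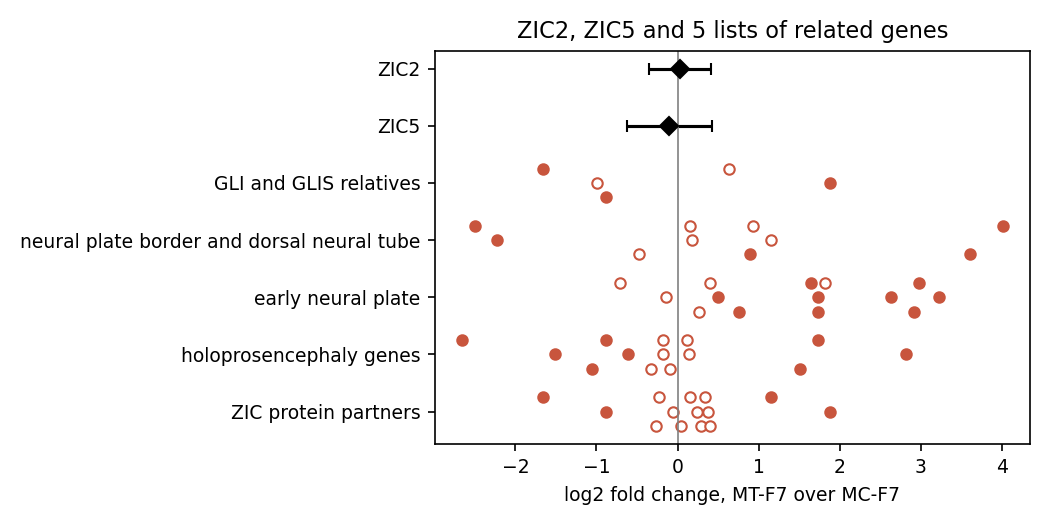
Log2 fold change of MT-F7 over MC-F7 for ZIC2 and ZIC5 (black diamonds with 95% intervals) and for the tested genes of 5 lists (circles, filled where the adjusted p was under 0.05, spread vertically for legibility). ZIC2 and ZIC5 lie at 0.030 and -0.10, while the early neural plate genes reach 3.23 and none of their filled circles is below 0.

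Markers of other cells moved between the groups beside these values. Of 14 tested fibroblast markers 4 rose and 1 fell in MT-F7, beside 11.9% higher and 11.3% lower over all tested genes. TWIST2 was the one that fell, and it changed most of the 14 (log2 fold change -2.15, adjusted p = 0.011). PDGFRB, one that rose, did not pass without MC-F7 replicate 1 (adjusted p = 0.052), MC-F7 replicate 2 (0.065) or MT-F7 replicate 3 (0.058). POSTN, another, did not pass without MT-F7 replicate 2 (0.059). The summed level of the fibroblast markers was 329 to 392 CPM in the MC-F7 libraries and 495 to 538 CPM in the MT-F7 libraries. COL1A1 was the highest of them at 169.8 to 286 CPM, and it did not pass (log2 fold change 0.39, adjusted p = 0.094). Of 8 neuron markers 5 were tested, of which 2 rose and 1 fell, beside the same shares over all tested genes. The sum of the neuron markers was 407 to 528 CPM on mitomycin C-treated MEFs against 559 to 788 CPM on fixed MEFs. Most of it came from STMN2 and TUBB3, and most of its rise from STMN2 alone. STMN2 had 256 ± 44.4 CPM in MC-F7 and 469 ± 102 CPM in MT-F7, and TUBB3 had 202 ± 16.7 and 174 ± 13.2 CPM. MAP2 (log2 fold change 2.13, adjusted p = 1.6e-05) and STMN2 (0.87, adjusted p = 0.0062) rose. ELAVL3 fell and changed most (-2.35, adjusted p = 4.4e-04), and TUBB3 did not pass (-0.22, adjusted p = 0.31). DCX, a defining marker of young neurons, was at 0 counts in MC-F7 and at 0.154 to 0.255 CPM in MT-F7, too low to be tested. Of 9 listed trophectoderm markers 4 were tested, which were the keratins KRT7, KRT8 and KRT18 and GATA2. Of 8 listed mesendoderm markers 2 were tested, EOMES and FOXA2. The others on both lists were too low to be tested. The tested markers of both lists were called lower, beside 11.3% of all tested genes. KRT7 (log2 fold change -3.34) and FOXA2 (-3.26) were the most changed. GATA2 of the first list did not pass without MC-F7 replicate 1 (adjusted p = 0.074), MC-F7 replicate 3 (0.074), MT-F7 replicate 1 (0.11) or MT-F7 replicate 2 (0.11). EOMES of the other list did not pass without MC-F7 replicate 2 (0.075), MT-F7 replicate 1 (0.065) or MT-F7 replicate 2 (0.052), which left 1 called mesendoderm marker. In bulk samples fewer cells of a type and less RNA per cell cannot be told apart, and the part of other cells, or of mouse RNA from the feeders, in the levels of ZIC2, ZIC5 and the listed genes was not tested.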

How the data were processed

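RNA of the 3 MC-F7 and 3 MT-F7 libraries was sequenced as 150 bp paired-end reads. The authors aligned the reads with HISAT2 2.0.5 to a Bos taurus genome from Ensembl, and deposited raw counts per Entrez gene from featureCounts 1.5.0-p3, together with values that they call TPM. Whether reads were counted by strand, and the build, are not given in the sources used here. The count table held 19163 genes, of which 19074 were given a symbol from RefSeq. Repeated lines of 159 Ensembl identifiers were dropped from the TPM values, which left 21357 genes.

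Low genes were removed with filterByExpr (counts of at least 10, total of at least 15). The remaining 13001 were compared by the quasi-likelihood test of edgeR 4.0.16 (R 4.3.3, TMM factors from 0.971 to 1.04, no block, Benjamini-Hochberg adjustment over all tested genes, threshold 0.05). The standard error is the log2 fold change divided by the root of the F statistic. A floor of 3 counts was used, or 0.12 to 0.137 CPM, which covers counting error only. The steps were tested on simulated counts. Alternatives tried were RLE or no factors, DESeq2 1.42.0, the likelihood ratio test, other filters, a block for the replicate number, leaving out each library, limma 3.58.1 on log2(TPM + 1) and log2(TPM + 0.1), and removal of mitochondrial genes. Leaving out both replicate 3 libraries and the window of 1.2 times around the level of each ZIC gene were chosen after seeing the data.

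The ZIC genes, the 5 lists of related genes and the 5 lists of markers were chosen with earlier results of these data known. Named were the ZIC genes, up to 6 called list genes with the largest and 2 with the smallest changes, the nearest 3 protein-coding genes, and the 3 most alike genes (mean CPM of 1 or more). Marker genes beyond that rule were named to give their level, and GLIS2, SHH, FEZF2, GAS1 and single markers were chosen after their values were seen. No protein, promoter or genome sequence was at hand, so none is shown.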

Additional observations from a re-analysis of the deposited data

How the results depend on the processing

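ZIC2 and ZIC5 passed the threshold in none of the 17 alternative fits, with adjusted p from 0.54 to 0.97 for ZIC2 and from 0.24 to 1.0 for ZIC5. Their directions were not stable. With 1 library left out, the log2 fold change was between -0.10 and 0.15 for ZIC2 and between -0.35 and 0.12 for ZIC5. On the deposited TPM, which were not scaled to library size, limma gave 0.047 with log2(TPM + 1) and 0.078 with log2(TPM + 0.1) for ZIC5. The difference in the log2 ratio of ZIC2 to ZIC5 was between -0.29 and 0.43 with 1 library left out, and -0.0032 without both replicate 3 libraries. The cause was not tested. The ratio of ZIC1 to ZIC4 and their fits were not run, since these genes were not analysed here.

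With the replicate number as a block in edgeR's quasi-likelihood test, the log2 fold change was 0.029 for ZIC2 (adjusted p = 0.88) and -0.055 for ZIC5 (adjusted p = 0.82), and 4674 genes were called over all. An exact permutation test by sign flips within the replicate numbers gave p = 1 for the ratio difference of 0.076. Deviations from the group means correlated at 0.127, 0.0410 and 0.392 across genes for replicates 1, 2 and 3 of the 2 groups. Between replicate 3 of 1 group and replicates 1 or 2 of the other, the correlation was from -0.305 to -0.127. Since the deviations of a group add up to 0 for each gene, the positive 0.392 forces these others below 0 on the whole. They therefore add no support of their own. By the value of 0.392, the replicate 3 libraries had more in common than a number. What they shared was not tested, and the main fit had no block. Of the MC-F7 libraries, replicate 3 correlated best with its own number and replicates 1 and 2 did not.

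With 1 library left out, 1914 to 3093 genes were called over all (1914 without MC-F7 replicate 2), and 2 to 4 of the ZIC protein partners (2 without MT-F7 replicate 1 or 2). With at least 10 counts in every library, which tests fewer genes, 3 genes of the neural plate border list were called, and limma called 5 holoprosencephaly genes on both TPM scales. The other total counts of called list genes were within 1.5 times those in the report, but counts by direction moved further. Of the GLI and GLIS relatives, 2 were higher and 1 was lower without MC-F7 replicate 3 or MT-F7 replicate 1, and 1 was higher and 1 lower without MC-F7 replicate 2 or MT-F7 replicate 2 and by limma. The number of higher relatives was also 2 with library size only, DESeq2, the likelihood ratio test, all genes with at least 1 count, the block, or both replicate 3 libraries left out. With the block, and without both replicate 3 libraries, 4 partners were higher, and 1 partner was lower without MC-F7 replicate 2 or 3 and by limma, and 1 higher and 1 lower without MT-F7 replicate 1 or 2. The border list had 1 lower gene with at least 10 counts in every library.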

Other observations

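Around the place of ZIC4 and ZIC1 in the RefSeq order, 5 of the 6 nearest protein-coding genes were in the count table. AGTR1, the angiotensin II receptor, rose from 0.860 ± 0.276 to 3.88 ± 0.386 CPM in MT-F7 (log2 fold change 2.16, standard error 0.326, adjusted p = 4.4e-04). PLSCR2, a phospholipid scramblase, had 2.12 ± 0.248 CPM in MC-F7 and 3.58 ± 0.460 CPM in MT-F7, without overlap, and a log2 fold change of 0.75 (adjusted p = 0.059). LOC104968807 had a log2 fold change of 0.25 (adjusted p = 0.46), and PLSCR5 and PLSCR1 were at 0 counts in all 6 libraries.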
